A study of Homo sapiens with 4 samples.

Results

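The Hippo pathway is a kinase cascade that holds back growth. Upstream proteins such as NF2 activate the kinases LATS1 and LATS2, which phosphorylate the coactivators YAP1 and WWTR1 (TAZ) and keep them out of the nucleus, where they would otherwise work with TEAD transcription factors. The angiomotins AMOT, AMOTL1 and AMOTL2 bind YAP1 and WWTR1 at junctions and along actin filaments, and SLMAP belongs to the phosphatase complex STRIPAK, which switches the cascade off. In hepatic stellate cells, YAP1 is known as a driver of the change into collagen-producing myofibroblasts.

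These 10 genes were taken by name from 2 tables of cytidine positions, and 5 of the 10 were listed: AMOTL1, AMOTL2, NF2, SLMAP and YAP1. AMOT, WWTR1, LATS1, LATS2 and TEAD1 had no listed position in either table. The 5 listed genes held 22 different positions of the 17862 listed in all, with 18 in the control table of 8112 positions and 5 in the TGF-β1 table of 11735. The study compared untreated LX-2 cells, a human hepatic stellate cell line labelled wild type, with LX-2 cells given recombinant human TGF-β1, the growth factor that activates stellate cells, at 5 ng/ml for 24 h. Each group had 2 libraries labelled biological replicates, all from the same cell line. NaBH4 sequencing was used to look for N4-acetylcytidine (ac4C), a cytidine modification that, once reduced with NaBH4, is read as a mismatch. The level given here is the mismatch difference of the authors, in percent, with 1 value per position and group. No library was labelled as an untreated-chemistry or NAT10-depleted control, so a listed position is a mismatch at a C that was not shown to be ac4C.

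The tables carry no value per library and no read depth, so no value below has a replicate error, and differences between the groups have no replicate check. A gene or position that is not listed has no value: it may lack a mismatch, miss the authors' threshold or lack reads. Transcript level was not given either, so fewer reads of a transcript and fewer mismatches cannot be told apart. As a check of the labelled cell type, 10 of 12 stellate or myofibroblast markers were listed in at least 1 group. Of these, ACTA2, LOX, PDGFRB and COL3A1 were listed only after TGF-β1. None of the 6 hepatocyte and 4 endothelial markers was listed. Of 4 macrophage or blood markers only CD68 was listed, and of 4 cholangiocyte markers only SOX9.

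All 5 listed genes of the pathway had fewer listed positions after TGF-β1. Among all 6112 listed genes 35.3% had fewer, while 51.2% had more and 13.6% had equal numbers. The count rests on low levels: with a mismatch difference of at least 5% required, 2 genes had fewer (6 control and 3 TGF-β1 positions). At that level AMOTL2 and SLMAP had equal numbers, NF2 had none left, and 30.1% of all genes listed had fewer. At 10% only YAP1 had fewer, beside 26.9% of all genes, while SLMAP had 1 position more. AMOTL1 went from 6 positions to 0, AMOTL2 from 5 to 2, SLMAP from 3 to 1, NF2 from 3 to 2 and YAP1 from 1 to 0. Over the 5 genes the 18 control positions stood against 5, a ratio of 0.278 for TGF-β1 over control, beside 1.46 for all genes. AMOTL1 and YAP1 were absent after TGF-β1, as were 38.0% of the 4384 genes listed in control. The median change per listed gene was -2.0 positions in the pathway and 1.0 over all genes.

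**Figure D1:**
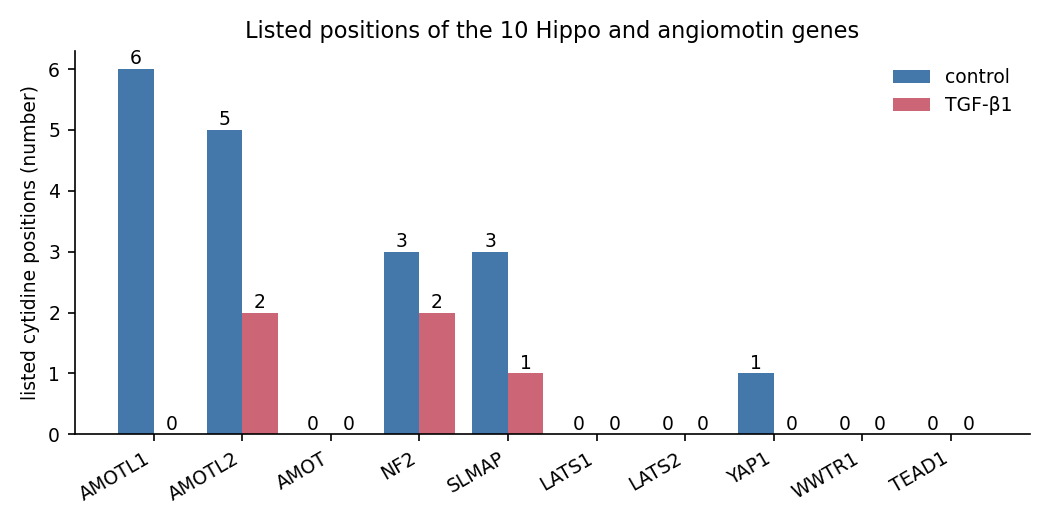
Number of listed cytidine positions (y axis) for each of the 10 genes (x axis) in the control (blue) and TGF-β1 (red) tables, with the number above each bar. AMOTL1 and AMOTL2 hold 11 of the 18 control positions, and 5 genes are at 0 in both groups.

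That count has to be read beside gene size and beside the number of control positions. The span of a gene moved with its direction: fewer positions were listed after TGF-β1 in 22.5% of genes under 20 kb, in 36.8% of those from 20 to 90 kb and in 59.2% of those of 90 kb or more. SLMAP spans 174.6 kb, AMOTL1 170.3 kb, YAP1 123 kb and NF2 95 kb, so 4 of the 5 listed genes fall in the longest class. The median span over all listed genes is 29.2 kb. AMOTL2 spans only 20.1 kb. Genes with at least 3 control positions more often had fewer afterwards, 51.1% of 890, and among such genes of 90 kb or more the share was 68.4% of 234. AMOTL1, NF2 and SLMAP belong to that last set, and all 3 had fewer. The part of gene span in these counts was not tested.

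YAP1 and WWTR1 reach DNA through TEAD factors, whose core motif is GGAATG, read on the opposite strand as CATTCC. Both strands were searched. AMOTL2 and LATS2 are known targets of this pair, and the LATS2 match, which lies after its start, is not printed. The stretches printed here are the matches upstream of a start site among the promoter windows of the 10 genes. They come from the RefSeq promoter windows of build GRCh38.p14 (250 bases before to 50 after a start), are written on the gene's strand, and have the motif in capitals.
AMOTL2, chr3:134374499-134374528, minus strand: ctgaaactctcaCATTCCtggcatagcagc
YAP1, chr11:102110273-102110302, plus strand: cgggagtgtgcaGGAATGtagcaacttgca
SLMAP, chr3:57756213-57756242, plus strand: tcgttcacgtgaCATTCCtggactacggcg
SLMAP, internal start, chr3:57889951-57889980, plus strand: aaatttggtcatGGAATGtgttacactgcc

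Windows were found for 9 of the 10 genes, 15 in all, and 5 of the 15 held the motif on either strand, the fifth being that of LATS2 just after its start. Of all 35116 windows 14.0% held it. In AMOTL2 the motif began 69 bases before a start, in YAP1 162 bases, and in SLMAP 84 and 39 bases. That AMOTL2 start lies downstream of another start, whose window held no match. A further SLMAP window held none either. AMOTL1, whose 6 positions were listed in control alone, had no match in its window, nor did NF2. A match describes these letters and is not a bound site. No listed position of the 10 genes lay in a promoter window, and the sequence around the positions was not used here.

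AMOTL1 (ENSG00000166025, chromosome 11, plus strand) is an angiomotin of tight junctions that binds YAP1. Its 6 control positions divided evenly between coding sequence and the 3'UTR, and both annotated transcripts carried all of them. In coding sequence, the mismatch difference was 3.47% at position 94799668, 2.04% at 94831486 and 1.95% at 94854047. In the 3'UTR it was 5.41% at 94870845, 1.20% at 94870967 and 5.78% at 94871306. The 2 highest AMOTL1 values thus lay in the 3'UTR, whose 3 positions fell within 461 bases, and the lowest lay between them. The authors' p-value at the position of 5.78% was exactly 0, and at that of 5.41% it was 7.54e-16. These positions are on build hg38.

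No AMOTL1 position was listed after TGF-β1. Of 136 genes with 6 or more control positions, 10 genes or 7.35% had none after TGF-β1, AMOTL1 included. Those with most control positions were the contractility kinase gene MYLK and the ubiquitin ligase gene RNF213, each with 11, then the proliferation marker MKI67 and the ubiquitin ligase UBR4, each with 9, and CIT, citron kinase, with 7. Likeness here means only the 2 numbers per gene. ZNFX1, a gene of 40.5 kb, had 7 as well. Of the 10 genes, 7 span 90 kb or more.

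AMOTL2 (ENSG00000114019, chromosome 3, minus strand) is the shorter angiomotin, itself known as a transcript raised by YAP1. It has the TEAD motif in the promoter window shown before, and none in the window of its more 5' start. All of its 7 positions lay in coding sequence. In control, the values from the 5' side were 7.09% at position 134371199, 5.23% at 134371078, 2.10% at 134367544, 2.31% at 134361590 and 1.70% at 134360332. The 2 highest control values stood 121 bases apart on the 5' side, in sequence that 9 annotated transcripts share, and the 3 lower ones stood in sequence of 4 transcripts. After TGF-β1 the values were 5.52% at 134361772 and 7.58% at 134360122.

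The AMOTL2 positions of the 2 groups were different cytidines. Each TGF-β1 position lay near a control position, at 182 and 210 bases, and its value was above that of its neighbour. The other 3 control positions, the 2 highest among them, lay 5772 to 9427 bases from the nearest TGF-β1 position. The control position with 7.09%, where the authors' p-value was exactly 0, was not listed after TGF-β1. Positions with a p-value of 0 recurred seldom in general, with 5.52% of 652 control positions listed again. Of the 106 genes with 5 control positions, 34.0% had 2 or fewer after TGF-β1, as AMOTL2 did. The lowest AMOTL2 control value had an authors' p-value of 0.0338 and the TGF-β1 value of 7.58% one of 0.0177, both close to the limit of the lists.

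**Figure D2:**
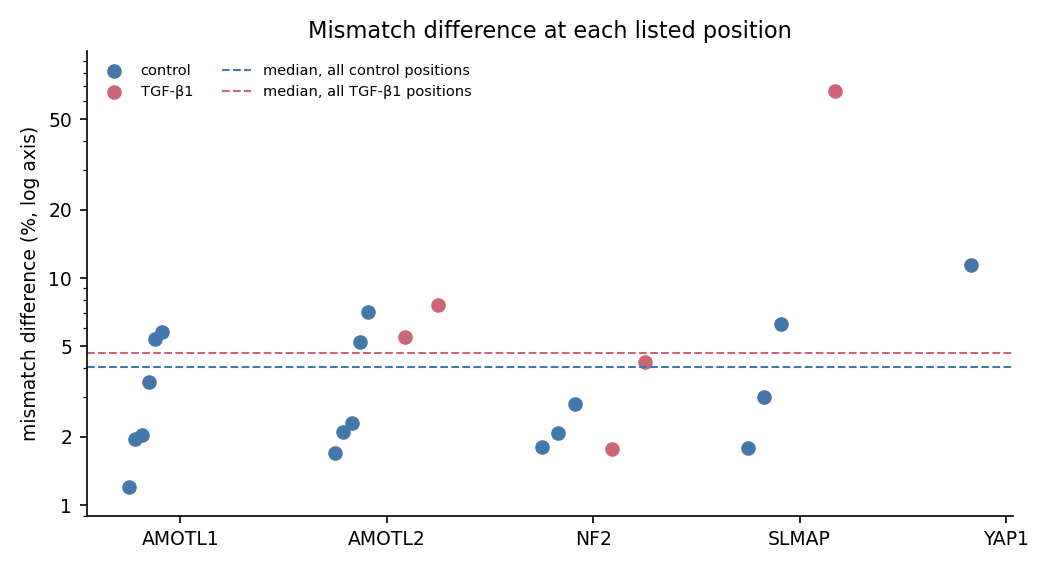
Mismatch difference in percent (y axis, log scale) at every listed position of the 5 listed genes (x axis), blue for control and red for TGF-β1; dashed lines are the medians of all listed positions, 4.05% in control and 4.68% after TGF-β1. Points of 1 gene and group are spread sideways for visibility, and the SLMAP point at 66.7% stands far above every other.

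NF2 (ENSG00000186575, chromosome 22, plus strand) encodes merlin, the membrane-linked tumour suppressor that recruits LATS kinases. Its positions were all coding and among the lowest in level. Control values were 2.07% at position 29668417, 1.80% at 29671907 and 2.79% at 29674879. After TGF-β1, values were 1.77% at 29668422 and 4.28% at 29681515. The ranges of the groups overlap, and the authors' p-value of the higher TGF-β1 value was 0.0494, just under 0.05.

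The first NF2 positions of the 2 groups lay 5 bases apart, at similar levels, in sequence that 12 annotated transcripts share. Read as neighbours within 10 bases, 2 control positions of the pathway genes had a counterpart after TGF-β1 (this one and the shared SLMAP position). Of the 17 control positions of the pathway genes that were not listed again, only this NF2 position had such a neighbour. Over all genes, 7.30% of the 6127 control positions that were not listed again had a TGF-β1 position within 10 bases. With the authors' p-values of 2e-15 and 3.54e-07, neither NF2 position was near the p-value limit of its list. Their levels were low, with 2.07% above 14.8% of control positions and 1.77% above 6.22% of TGF-β1 positions.

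SLMAP (ENSG00000163681, chromosome 3, plus strand) encodes a tail-anchored protein through which STRIPAK takes phosphate off the kinases upstream of LATS1 and LATS2. All 3 control positions were coding, with 6.30% at position 57862035, 1.79% at 57864611 and 3.01% at 57912674. After TGF-β1 only position 57862035 was listed, at 66.7%. It was the single position of the 10 genes listed in both groups, and 24 annotated transcripts carry it.

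At that cytidine the mismatch difference was higher by 60.4 points after TGF-β1, a fold of 10.6 or a log2 ratio of 3.4. Of the 1985 shared positions 78.4% were higher after TGF-β1, with a median difference of 1.73 points and a median log2 ratio of 0.58. In points the SLMAP difference ranked 1 of 1985, before 55.8 points at the next, and only 3 positions (0.151%) differed upward by 50 points or more, while 6.95% did so by 10 points or more. In ratio it ranked 13. The authors' p-value went the other way, from 2.16e-20 at 6.30% to 1.92e-08 at 66.7%. A larger p-value with a higher level was found at 26.2% of the shared positions that were higher after TGF-β1, and at 19.6% of the 138 that were higher by 10 points or more. Of the 33 TGF-β1 positions of 50% or more, 5 had a larger p-value than SLMAP. The median of the authors' p-values over all 33 was 1.59e-150. Read depth at this position is unknown, and its part in the value was not tested.

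**Figure D3:**
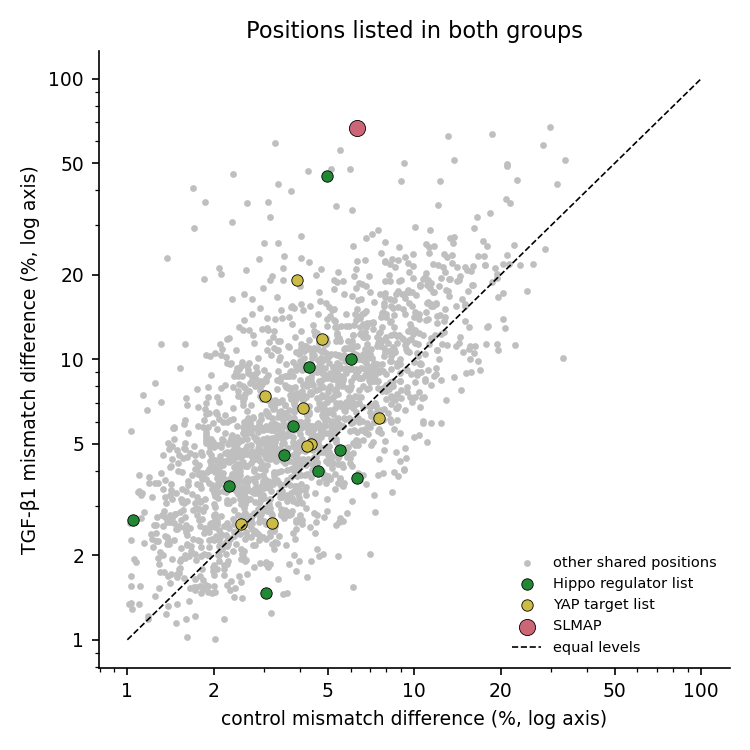
Mismatch difference in control (x axis) and after TGF-β1 (y axis), both in percent on log scales, at the 1985 positions listed in both groups; grey points are positions of other genes, coloured points those of SLMAP, of the Hippo regulator list and of the YAP target list, and the dashed line marks equal levels. SLMAP lies at 6.30% and 66.7%, farther above the line in points than any other position.

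YAP1 (ENSG00000137693, chromosome 11, plus strand), the coactivator on which the cascade acts, had 1 position, in the 3'UTR at 102232063. Its control value was 11.4%, above 90.6% of control positions and the highest of the 18, and it lay 1.36 kb before the gene's 3' end. The authors' p-value there was 0.00273, and 63.6% of control positions had a lower one. After TGF-β1 YAP1 was not listed, like 47.8% of the 2471 genes with a single control position. The other coactivator gene, WWTR1, the kinase genes LATS1 and LATS2, the TEAD1 gene and AMOT had no value in either group, so they say nothing of the direction in their transcripts.

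With introns counted, AMOTL1 positions began 93.2 kb from the gene's 5' end, NF2 positions 64.9 kb and SLMAP positions 107 kb from it. Those of AMOTL2 ran from 4.28 to 15.4 kb of its 20.1 kb. Of the 18 control positions 14 (77.8%) were coding and 4 (22.2%) lay in 3'UTRs, beside 74.7% and 12.6% of all control positions. All 5 TGF-β1 positions were coding, beside 76.3% of all. None of the 10 genes had a listed 5'UTR position, a class that made up 9.87% of the control list.

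The control levels of the 18 positions were low for their list. They ran from 1.20% to 11.4% with a median of 2.55%, beside 4.05% for all control positions. The 5 TGF-β1 values ran from 1.77% to 66.7% with a median of 5.52%, beside 4.68% for all. Of the 18 control positions 1 (5.56%) was listed again after TGF-β1, beside 24.5% of all control positions. Among genes listed in both groups, which here are AMOTL2, NF2 and SLMAP, it was 1 of 11 (9.09%), beside 34.5% of 5750. In the other direction 1 of the 5 TGF-β1 positions (20%) was also in the control list, beside 16.9% of all TGF-β1 positions.

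Among the other genes of the pathway both directions were found. Of 58 further regulators 37 were listed, and after TGF-β1 the number of positions was higher in 15, lower in 17 and equal in 5, beside 51.2%, 35.3% and 13.6% of all listed genes. In sum 77 control and 89 TGF-β1 positions were listed, a ratio of 1.16, and the median change per gene was 0. In this list too direction moved with span: of the 20 listed regulators of 90 kb or more 13 had fewer and 5 had more positions, while of the 17 shorter ones 4 had fewer and 10 had more.

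Kinases of the cascade and its scaffolds were on both sides. MINK1, a MAP4K-family kinase that can act on LATS1 and LATS2, had 7 control and 12 TGF-β1 positions, and MAP4K4, its relative, had 3 and 5. TAOK3, a kinase upstream of the cascade, had 5 and 1, with control values from 1.68% to 7.03% and a value of 8.71% after TGF-β1. TAOK2 had 2 and 3. WWC1 (KIBRA), the partner of NF2 at the membrane, had 5 and 4 positions. The polarity scaffold DLG5 had 8 and 7, and SCRIB, another polarity scaffold, had 1 and 4.

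Of SLMAP's listed partners in STRIPAK more had additional positions after TGF-β1 than had fewer, and the difference from SLMAP was not tested. Of 15 such genes within the regulator list, a subset set apart by function after the tables had been opened, 10 were listed, 7 had more positions and 2 had fewer, with 11 in control and 36 after TGF-β1. Of all listed genes 51.2% had more and 35.3% fewer. By span, 22.5% had fewer under 20 kb, 36.8% from 20 to 90 kb and 59.2% at 90 kb or more. The striatin STRN4 had 3 and 11, PPP2R1A, the scaffold subunit of the phosphatase PP2A, had 1 and 8, and the kinase STK25 had 0 and 6. Of these 10 genes 8 span less than 90 kb, against 174.6 kb for SLMAP. Of those 8, 5 had more positions and 2 fewer, and the 2 of 90 kb or more, STK24 and STRN3, had more.

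At the 11 shared positions of the regulators 7 were higher after TGF-β1, with a median difference of 1.25 points. The 2 shared STRN4 positions had 2.27% and 6.01% in control and 3.52% and 10.0% after TGF-β1. The 2 shared MINK1 positions had 1.05% and 3.79% in control and 2.68% and 5.76% after it. The shared DLG5 position went the other way, with 3.04% and 1.47%.

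Transcripts known to be raised by YAP1 and WWTR1 had shares close to those of all listed genes. Of 20 signature genes other than AMOTL2 and LATS2, 15 were listed, with 8 having more positions, 5 fewer and 2 equal numbers (29 and 35 positions, ratio 1.21), beside 51.2% more, 35.3% fewer and 13.6% equal among all listed genes. AXL, a receptor tyrosine kinase, had 2 and 8 positions, with control values of 2.39% and 2.87% and TGF-β1 values from 2.51% to 9.89%. CCN1, a matricellular protein, had 3 and 5, the exchange factor ARHGEF17 3 and 4, and CRIM1, a membrane-bound binder of growth factors, 3 and 4. ASAP1, an Arf GTPase-activating protein, had 4 and 1, CCDC80 3 and 2, and MYOF, a membrane-repair ferlin, 3 and 0. NT5E, the ectonucleotidase CD73, had 2 and 2, and ANKRD1, F3 (tissue factor) and GADD45A each had 1 and 2.

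**Figure D4:**
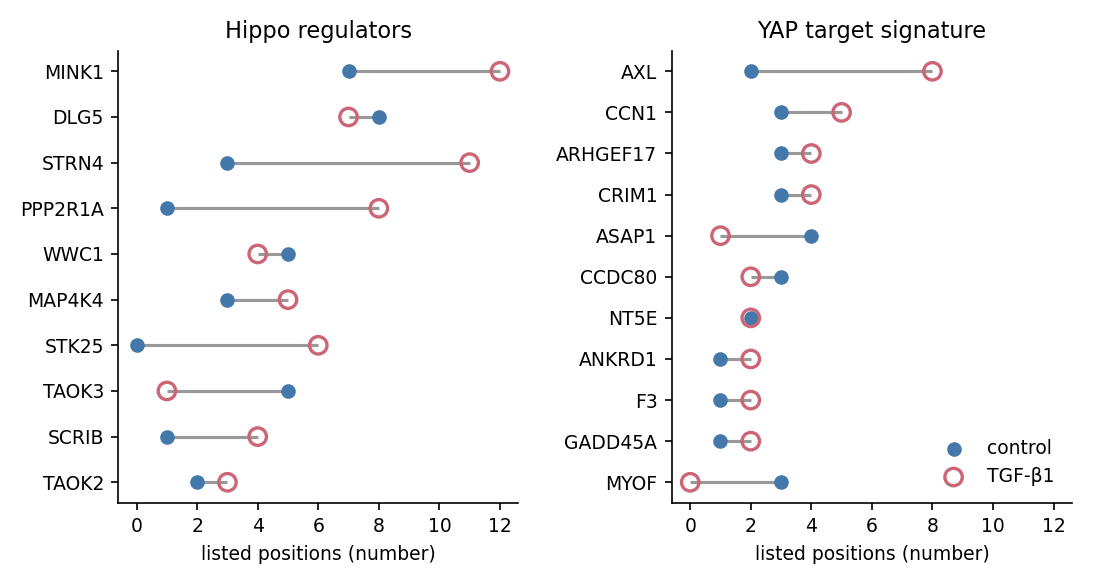
Number of listed positions (x axis) in control (blue points) and after TGF-β1 (red rings) for 10 of the regulators with most positions (left) and the 11 signature genes with 3 or more positions (right, AMOTL2 shown elsewhere); a line joins the values of a gene. Rings lie on either side of the points, with 12 against 7 for MINK1 and 1 against 5 for TAOK3.

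At the 9 shared positions of the signature genes 7 were higher after TGF-β1, with a median difference of 0.675 points. The largest was in NT5E, with 3.89% in control and 19.2% after TGF-β1. CCN1 had 3 shared positions, at 2.49%, 7.55% and 3.03% in control and at 2.58%, 6.18% and 7.38% after TGF-β1, so that 1 of them was lower.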

How the data were processed

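Polyadenylated RNA of 4 LX-2 libraries, 2 per group by their titles, was sequenced after NaBH4 treatment. The tools named, per the submitters' processing notes, are STAR 2.7.6a, fastp 0.23.1 and featureCounts, and the build is hg38. How positions were called, filtered and joined over replicates is not given in the sources used here. For each group 1 table was deposited. Per the file headers, each line holds a position, a transcript, a difference and a p-value. The deposited difference is a fraction, printed in percent, with none below 1.00%, and what it subtracts is not stated. The deposited p-value is below 0.05 throughout, and any adjustment is not stated. Depth is unknown.

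Lines were merged to 1 per position and gene name with Python 3.11.15 and pandas 2.3.3, checked on simulated data. The end column was read as the 1-based position: of the listed positions inside RefSeq promoter windows, all 210 of the control table and all 308 of the TGF-β1 table had C there on the listed strand.

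The genes and lists were chosen with earlier results of these data known. Members were all named, and from each list up to 12 genes with 3 or more positions. A few genes that this rule names are not shown by name. The planned models per library could not be fitted to 1 value per group, so counts and differences are given with no test, beside shares over all genes. Alternatives varied the p-value limit, the minimum level, list length, segment and counting unit.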

Additional observations from a re-analysis of the deposited data

How the results depend on the processing

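The 10 genes had 18 control and 5 TGF-β1 positions. With an authors' p-value under 0.01, 3 TGF-β1 positions were left. Under 0.001, 11 and 3 were left and 4 genes had fewer, beside 30.7% of all genes. With coding positions only, 14 and 5 were left and 4 genes had fewer, beside 34.1%. At a level of at least 5%, 6 and 3 were left and 2 genes had fewer positions, beside 30.1% of all genes. At 10%, 1 (YAP1) and 1 (SLMAP) were left, 0 positions were shared, and SLMAP turned to a change of 1 position upward. Then 1 gene had fewer, beside 26.9% of all genes. When the TGF-β1 list was cut to as many positions as the control list, keeping the smallest p-values, 3 were left, and 47.3% of all genes then had fewer, beside 35.3%. Counted per transcript line, the numbers were 150 and 55. With neighbours within 10 bases, 2 positions were shared. Of 40 values of the change per gene under the alternatives, 31 were below 0, 8 at 0 and 1 above. The alternatives are overlapping parts of the same lists, so these values are not independent checks. Keeping only positions of 1 gene left every change as it was. Leaving out a replicate was not run, since the tables hold no value per library. No paired analysis was possible because each group has 1 value per position. Unknown depth limits every statement on absence.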

Other observations

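Several pathway genes carried high values in 1 group, and they are named here after their values were seen. PALS1, a polarity scaffold of tight junctions, had a coding position at chromosome 14 position 67320240 with 4.98% in control and 44.9% after TGF-β1, a difference of 39.9 points. TAOK1, a kinase upstream of the cascade, had 45.6% at its only TGF-β1 position, against 2.59% and 7.73% at 2 other positions in control. TGFB2, a TGF-β ligand and member of the YAP signature, had no control position and values of 4.75% and 58.3% after TGF-β1. STRN3, a striatin, had 4.8% at 1 control position and 15.6% and 16.2% at 2 others after TGF-β1. ITCH, a ubiquitin ligase that acts on LATS1, had a control position of 1.5% and another of 22.0% after TGF-β1.

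Other regulators were listed in control only. MOB1B, the activator of LATS kinases, had 22.1% at its only control position and none after TGF-β1. LIMD1, a LIM protein that binds LATS kinases, had control values of 7.37% and 18.9% and none after TGF-β1. NEDD4, a ubiquitin ligase of the family that acts on angiomotins, had 3 control positions, up to 18.3%, and none after TGF-β1. SAV1, the scaffold of the cascade, and FAT1, the atypical cadherin, each had 2 control positions and none after TGF-β1. Of all 4384 genes listed in control 38.0% were absent after TGF-β1, and of the 2471 with 1 control position 47.8%. An absent gene has no value, so these absences give no direction of level. MOB1B, LIMD1, NEDD4 and FAT1 span 90 kb or more, the class in which 59.2% of genes had fewer positions.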
